A study of Mus musculus with 8 samples.

Results

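The 6 genes of the glycolytic pathway Aldoa, Tpi1, Gapdh, Pgk1, Pkm and Ldha were followed through the epithelial classes of the pubertal mouse mammary gland. They were chosen by symbol, and all 6 were found among the 14883 gene lines of the table. Single cells had been taken from micro-dissected ducts and terminal end buds, which are the tips at which the ducts grow, in mice of mixed strain aged 5 weeks. Live cells were sorted into plates and processed by SORT-seq, a robot-run form of CEL-seq2 in which each well and each transcript molecule carries a tag. The samples are 8 libraries of 96 wells, 4 on plate 1 and 4 on plate 2. No treatment or mutant allele is named, and the labels tie no library to ducts, to end buds or to an animal. The libraries may therefore be technical replicates, and p-values speak only for the spread between them.

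Glycolysis turns glucose into pyruvate in the cytosol and yields ATP and NADH on the way. Aldolase cleaves the hexose bisphosphate, and triosephosphate isomerase joins both products into a single line for the later enzymes. Lactate dehydrogenase then moves electrons from NADH to pyruvate, which lets the upper steps continue. In the mammary gland, glucose also feeds lactose and lipid synthesis once secretion begins, while the pubertal gland is a growing tissue of contractile basal cells around luminal cells. Luminal cells are of 2 kinds, hormone-sensing cells with receptors for oestrogen, progesterone or prolactin, and secretory cells of the line that later makes milk.

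Of 768 wells, 114 held at least 1500 transcripts and 500 genes and were kept as cells. Basal cells were those with more Acta2, Tagln and Myl9 than Krt8, Krt18 and Krt19 transcripts, 66 in all, and 42 cells with the reverse were luminal. Luminal cells with Prlr above Trf were called hormone-sensing, 14 cells, and the other 28 secretory. The remaining 6 cells held none of these basal or luminal transcripts and were left out. Markers outside the rule followed the names: Krt5 stood at 5.43 per 10000 transcripts in basal cells and was at 0 in both luminal classes, and Csn3 stood at 5.27 in basal, 1.01 in hormone-sensing and 69.7 in secretory cells. Sums over the cells of a library with at least 3 cells of a class gave 4 basal, 3 hormone-sensing and 4 secretory sums, and these libraries are the replicates. The hormone-sensing sums held 3 cells in plate 1 library 3, 7 in plate 2 library 1 and 3 in plate 2 library 3. Libraries held 101158 to 598625 transcripts. The kept cells used 67 distinct well numbers, so well tags recur between libraries and cells were told apart by library.

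Several libraries need a remark before any result. Plate 1 library 2 held 8 basal cells, and in 5 of them the markers of some non-epithelial cell type outnumbered the epithelial markers. The same was true of 2 of 7 basal cells in plate 1 library 4, of the single basal cell in plate 1 library 3 and of 1 of 7 secretory cells in plate 1 library 1. Of these 8 basal cells, 6 were led by the adipocyte list through Fabp4 with 255 transcripts, while Adipoq and Plin1 were at 0 and Cidec at 1. All 6 also held an endothelial marker, and 5 held at least 3 of them. Over the basal sums the 4 adipocyte markers ranged from 0 to 28.6 per 10000 transcripts and the 8 endothelial markers from 0.0341 to 12.3. Hormone-sensing and secretory sums had at most 0.0877 for the adipocyte list. Basal sums came from libraries 2 and 4 of each plate and luminal sums from libraries 1 and 3, and in every comparison of basal with luminal cells the class cannot be told apart from the library.

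Gapdh, the oxidising enzyme in the middle of the pathway, was the most abundant of the 6 genes in each class. Each transcript is counted once from its 3′ tag, so levels of different genes are compared per molecule without scaling to length. In basal sums Gapdh had 13.8, 13.8, 12.8 and 12.1 transcripts per 10000, a mean of 13.1 ± 0.85 (SD, n = 4). In hormone-sensing sums it had 20.3, 14.3 and 13.0, a mean of 15.9 ± 3.91 (SD, n = 3), and in secretory sums 20.4, 8.88, 5.66 and 10.2, a mean of 11.3 ± 6.38 (SD, n = 4). Basal libraries lay close together, inside the range that the secretory libraries covered. Gapdh lies on chromosome 6 from 125161852 to 125166467 on build GRCm38.p6, the build of all positions given here. Its line has a near-identical neighbour in the table. Gm12070, annotated as a processed pseudogene on chromosome 11, matches a Gapdh transcript at 99.9% of 1002 aligned bases and held 1395 transcripts in the kept cells. It stood at 8.08 per 10000 in basal, 8.83 in hormone-sensing and 6.33 in secretory cells, and how reads were shared between both lines is not given in the sources used here. Gapdh levels are therefore uncertain. Counting Gm12070 as Gapdh changed no call of Gapdh in the comparisons that follow.

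Pkm, pyruvate kinase, which makes the pyruvate and an ATP and lies on chromosome 9 from 59656576 to 59679372, was the second most abundant gene in hormone-sensing cells. Basal sums had 7.28, 6.57, 4.48 and 4.75 per 10000, a mean of 5.77 ± 1.37 (SD, n = 4). Hormone-sensing sums had 12.7, 9.11 and 7.91, a mean of 9.90 ± 2.48 (SD, n = 3), and secretory sums 10.1, 3.58, 2.42 and 3.94, a mean of 5.01 ± 3.46 (SD, n = 4). All 3 hormone-sensing libraries lay above all 4 basal libraries, as they did for 15.5% of the 2876 genes tested, and 1 secretory library, plate 1 library 1, lay above 2 of the 3 hormone-sensing ones. By class mean the order was hormone-sensing, basal, secretory, and no neighbours in it passed the test.

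Aldoa, the main aldolase of most tissues, lies on chromosome 7 from 126795234 to 126800994. It had 5.85, 3.67, 2.01 and 2.84 per 10000 in basal sums, a mean of 3.59 ± 1.65 (SD, n = 4). Hormone-sensing sums had 5.78, 4.80 and 5.49, a mean of 5.35 ± 0.504 (SD, n = 3). Secretory sums had 9.999, 1.46, 0 and 2.72, a mean of 3.54 ± 4.44 (SD, n = 4). The secretory sum at 0, plate 2 library 1, held 12378 transcripts from 3 cells, which allows a level of up to 2.42 per 10000. Hormone-sensing libraries were nearly level for Aldoa, whereas the secretory libraries spanned the ranges of both other classes.

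Tpi1, triosephosphate isomerase, on chromosome 6 from 124810586 to 124814158, had the lowest mean of the 6 genes in each class. It averaged 1.53 ± 0.71 in basal (SD, n = 4), 2.26 ± 0.348 in hormone-sensing (SD, n = 3) and 2.55 ± 2.45 per 10000 in secretory sums (SD, n = 4). Pgk1, phosphoglycerate kinase, which makes the first ATP of the lower pathway and lies on chromosome X from 106187100 to 106203699, averaged 2.33 ± 0.876 in basal (SD, n = 4), 2.28 ± 0.528 in hormone-sensing (SD, n = 3) and 3.45 ± 4.66 in secretory sums (SD, n = 4). For both genes plate 1 library 1 held the highest secretory value, 6.10 for Tpi1 and 10.4 for Pgk1, while the other 3 secretory libraries stayed at or below 2.25 for Tpi1 and 1.59 for Pgk1.

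Ldha, the lactate dehydrogenase subunit common in tissues that make lactate, lies on chromosome 7 from 46842274 to 46855627. Its mean was highest in secretory and lowest in hormone-sensing cells. Basal sums had 6.14, 5.89, 4.91 and 5.66 per 10000, a mean of 5.65 ± 0.532 (SD, n = 4). Hormone-sensing sums had 5.78, 4.66 and 4.59, a mean of 5.01 ± 0.665 (SD, n = 3), and secretory sums 10.1, 5.43, 3.23 and 7.71, a mean of 6.62 ± 2.96 (SD, n = 4). The secretory libraries covered the range of both other classes.

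**Figure D1:**
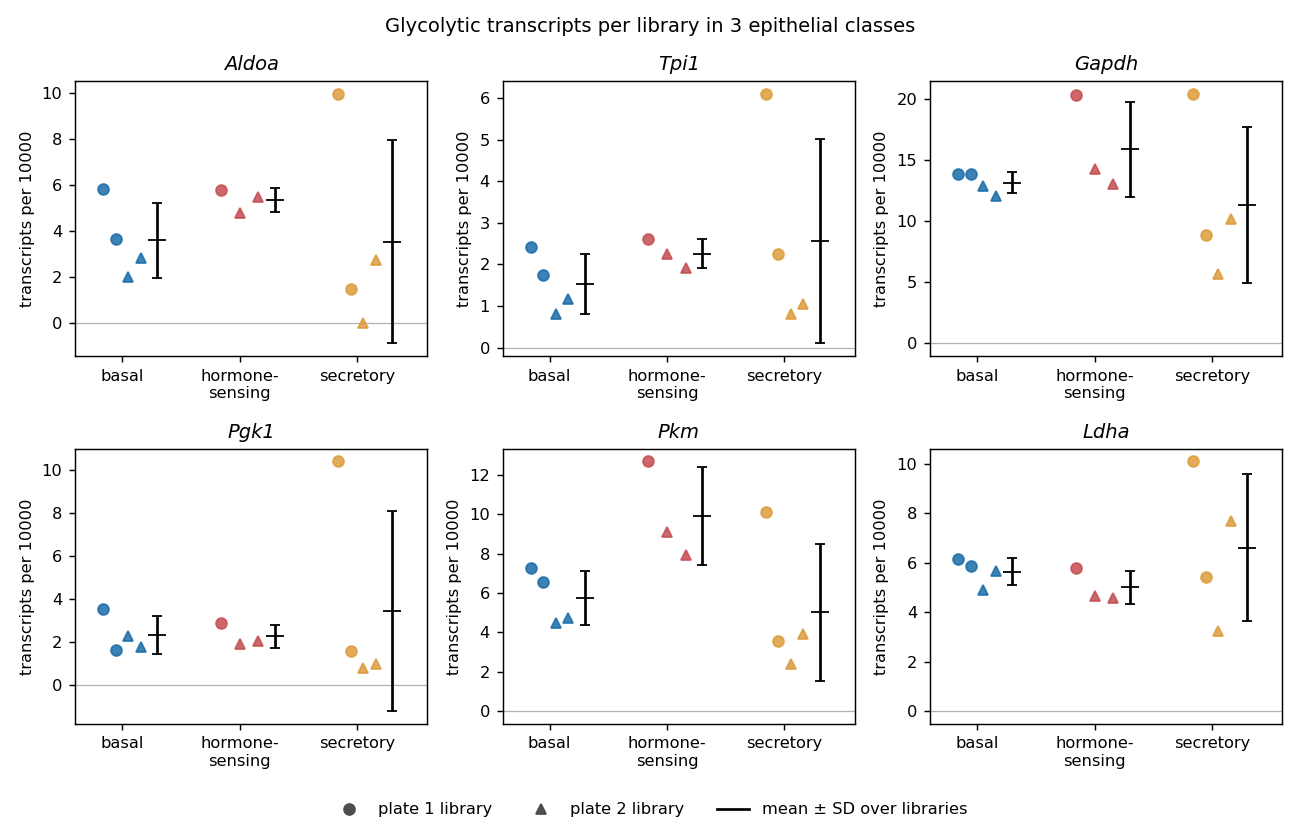
Transcripts per 10000 of the 6 genes in each library sum of basal, hormone-sensing and secretory cells, with circles for plate 1, triangles for plate 2 and black bars for mean ± SD. Pkm is the gene whose 3 hormone-sensing libraries, 7.91 to 12.7, all lie above the 4 basal libraries, 4.48 to 7.28, and the top secretory point of each gene is plate 1 library 1.

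At the level of cells, detection followed depth as well as class. Gapdh was found in 63 of 66 basal cells (95.5%, exact 95% binomial interval from 87.3 to 99.1%), in 14 of 14 hormone-sensing cells and in 25 of 28 secretory cells (89.3%). Tpi1 was found in 38 of 66 basal (57.6%), 14 of 14 hormone-sensing (100%) and 14 of 28 secretory cells. Median depth was 13451 transcripts in basal, 17924 in hormone-sensing and 7103 in secretory cells. With each cell thinned to 1500 transcripts, Tpi1 was found in 10.6% of basal, 42.9% of hormone-sensing and 17.9% of secretory cells, and Pkm in 43.9% of basal, 92.9% of hormone-sensing and 39.3% of secretory cells. As background, wells under 500 transcripts, with a median of 107 transcripts, held a Tpi1 transcript in 3.28% and a Pkm transcript in 15.5%. Intervals cover counting error only, and cells of a library are not replicates.

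Basal against luminal cells was tested on 4 sums a side. Summed over the 6 genes, basal libraries held 27.3 to 39.1 transcripts per 10000, a mean of 32.0 ± 5.42 (SD, n = 4), and luminal libraries 30.0 to 66.6, a mean of 42.7 ± 16.4 (SD, n = 4). On plate 1 the means were 36.2 in basal and 52.8 in luminal sums, and on plate 2 they were 27.8 in basal and 32.6 in luminal sums, with 2 sums each. All 6 genes had lower fitted levels in basal than in luminal sums, and 0 of 6 passed at an adjusted p of 0.05 in edgeR's quasi-likelihood test, against 14.7% of the 3412 genes tested. Tpi1 had the largest difference, with a log2 fold change of -1.06 ± 0.48 (SE; adjusted p = 0.180, edgeR). Aldoa had -0.72 ± 0.41 and Pkm -0.57 ± 0.27, with adjusted p of 0.305 and 0.208 in edgeR. Gapdh had -0.21 ± 0.22, Pgk1 -0.79 ± 0.57 and Ldha -0.26 ± 0.28, and DESeq2 called 0 of 6 as well. Plate 1 library 1 holds much of this: without it Tpi1 had -0.51, Pkm -0.42, Aldoa -0.24 and Gapdh -0.029, while Pgk1 had 0.29 and Ldha 0.027. The median over the 6 genes in all 8 sums was -0.64, beside -0.01 over all genes tested. Without the cells led by another type's markers, which leaves 3 basal sums, the values ran from -1.30 for Tpi1 to -0.22 for Gapdh and the lowest adjusted p was 0.0941, for Tpi1 in edgeR.

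Hormone-sensing against secretory cells was compared within the 3 libraries that held at least 3 cells of both. Aldoa had 5.78 in hormone-sensing and 1.46 in secretory cells of plate 1 library 3, 4.80 in hormone-sensing and 0 in secretory cells of plate 2 library 1, and 5.49 in hormone-sensing and 2.72 in secretory cells of plate 2 library 3. Pkm had 12.7 in hormone-sensing and 3.58 in secretory cells of plate 1 library 3, with 9.11 in hormone-sensing and 2.42 in secretory cells of plate 2 library 1. In plate 2 library 3 it had 7.91 in hormone-sensing and 3.94 in secretory cells. Both genes were higher in hormone-sensing cells in 3 of 3 libraries, and so were Gapdh, Pgk1 and Tpi1. How many of all genes tested had this order in each pair was not counted. Fitted with the library as block, Aldoa had a log2 fold change of 1.60 ± 0.59 (adjusted p = 0.0537, edgeR) and Pkm 1.36 ± 0.52 (adjusted p = 0.0617, edgeR), both just short of the 0.05 threshold. Leaving out a library pair gave 1.26 to 2.4 for Aldoa and 1.20 to 1.82 for Pkm, and the adjusted p of DESeq2 was 0.0970 for Aldoa and 0.105 for Pkm. Plate 1 library 1, where 7 secretory cells stood beside a single hormone-sensing cell, is not in these pairs. With its secretory sum in and no block, Aldoa had 0.28 and Pkm 0.78.

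Gapdh was also higher in hormone-sensing cells in 3 of 3 libraries, at 20.3, 14.3 and 13.0 per 10000 beside 8.88, 5.66 and 10.2 in secretory cells. Its log2 fold change was 0.78 ± 0.43 (adjusted p = 0.272, edgeR), and 0.94 with Gm12070 counted as Gapdh (adjusted p = 0.0770, edgeR). Pgk1 had 0.81 ± 0.61, with 2.89, 1.92 and 2.04 per 10000 in hormone-sensing cells beside 1.59, 0.808 and 0.964 in secretory cells. Tpi1 had 0.47 ± 0.61, with 2.61, 2.26 and 1.91 in hormone-sensing cells beside 2.25, 0.808 and 1.05 in secretory cells. The secretory sum of plate 2 library 1 held 1 transcript of each. Ldha alone of the 6 had a negative value, -0.27 ± 0.54 (adjusted p = 0.856, edgeR), with 5.78, 4.66 and 4.59 per 10000 in hormone-sensing cells and 5.43, 3.23 and 7.71 in secretory cells. Plate 2 library 3 was the pair with the lower hormone-sensing value, and without it Ldha had 0.24. In all, 0 of 6 passed, against 13.1% of the 1801 genes tested, and DESeq2 also called 0 of 6. The median over the 6 genes was 0.79, beside 0.10 over all genes. The adjusted p-values of this comparison rest on a spread pooled over genes, since the design leaves 2 residual degrees of freedom.

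Basal cells were also set against each luminal class in a single fit of 11 sums. Against hormone-sensing cells, Pkm had a log2 fold change of -0.69 ± 0.40 (adjusted p = 0.263, edgeR), Tpi1 -0.59 ± 0.53, Aldoa -0.52 ± 0.57 and Gapdh -0.17 ± 0.35, while Pgk1 had 0.09 ± 0.61 and Ldha 0.27 ± 0.36. None of the 6 passed in edgeR or DESeq2, against 21.4% of the 2876 genes tested by edgeR. Against secretory cells, Tpi1 had -1.04 ± 0.51 (adjusted p = 0.188, edgeR), Pgk1 -0.77 ± 0.57, Ldha -0.32 ± 0.34 and Aldoa -0.24 ± 0.55, while Gapdh had 0.16 ± 0.33 and Pkm 0.09 ± 0.39. Again 0 of 6 passed with either tool, against 17% in edgeR. Values against secretory cells turn on plate 1 library 1: without it Aldoa had 0.86 and Pgk1 0.86, both higher in basal cells, and Tpi1 had -0.16. Without the cells led by another type's markers, 0 of 6 passed in either comparison. Pkm then had -0.61 and Gapdh -0.032 against hormone-sensing cells, and Tpi1 had -0.92 and Gapdh 0.29 against secretory cells.

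**Figure D2:**
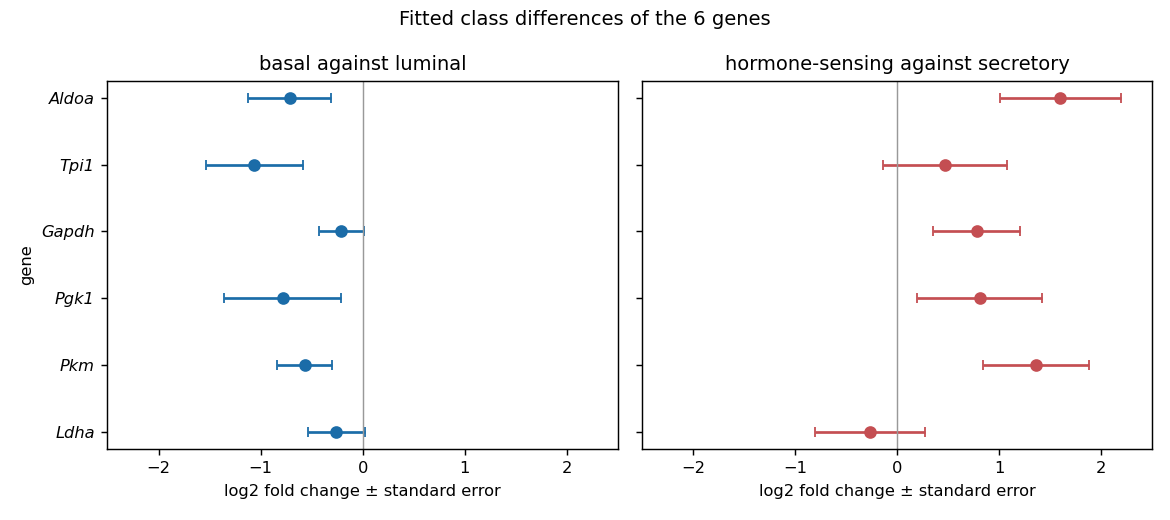
Fitted log2 fold changes of the 6 genes with standard errors, basal against luminal on the left and hormone-sensing against secretory on the right, positive values being higher in basal or hormone-sensing cells. All 6 points on the left lie below 0, and on the right Aldoa at 1.60 and Pkm at 1.36 lie farthest from 0 while Ldha is at -0.27.

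Lactate dehydrogenase and aldolase each have another isoform in the table, and both of these passed tests between classes. Ldhb, the subunit common in tissues that oxidise lactate, had 1.71, 0.966, 1.72 and 1.56 transcripts per 10000 in basal sums and 3.58, 1.19, 1.62 and 1.84 in secretory sums. It was at 0 in all 3 hormone-sensing sums, 0 of 331640 transcripts, although hormone-sensing cells were the deepest. Over summed counts, with 3 counts over the group as the floor, Ldhb was at least 17.7-fold higher in basal and at least 24.6-fold higher in secretory than in hormone-sensing cells. The exact 95% counting intervals, which also take in the error of the other class, reached down to 14.2-fold for basal over hormone-sensing and up to a ratio of 0.0515 for hormone-sensing over secretory cells. Adjusted p was 3.14e-05 for basal against hormone-sensing and 9.66e-06 for hormone-sensing against secretory, both in edgeR. The second of these was lost on leaving out plate 1 library 3 (adjusted p = 0.0828, edgeR) or plate 2 library 1 (adjusted p = 0.0665, edgeR), which leaves 2 pairs. Without plate 2 library 3, Ldhb was not among the genes tested, so the call was kept on leaving out no library. A transcript of Ldhb was found in 45 of 66 basal cells (68.2%), 1 of 14 hormone-sensing cells (7.14%, a cell outside the 3 sums) and 16 of 28 secretory cells (57.1%), and in 1.55% of wells under 500 transcripts. Ldha, by contrast, was found in 13 of 14 hormone-sensing cells (92.9%).

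Aldoc, the aldolase best known from brain, showed another pattern. Secretory sums had 5.999, 2.52, 5.66 and 5.35 per 10000, against 0 to 0.483 in basal and 0.373 to 0.510 in hormone-sensing sums. No secretory library overlapped the other classes, and how many of all genes tested had this order was not counted. Aldoc was lower in basal than in secretory sums by a log2 fold change of -4.18 ± 0.47 (adjusted p = 2.99e-06, edgeR) and lower in hormone-sensing than in secretory sums by -3.32 ± 0.65 (adjusted p = 9.21e-06, edgeR). In plate 2 library 1, where secretory cells had no Aldoa transcript, they held 7 of Aldoc. Against all luminal cells, basal sums had -3.42 ± 0.66 (adjusted p = 0.00287, edgeR). Without the basal cells led by another type's markers, the basal calls of Ldhb and Aldoc were kept, with adjusted p of 2.55e-05 for Ldhb against hormone-sensing and 1.58e-06 for Aldoc against secretory cells in edgeR.

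**Figure D3:**
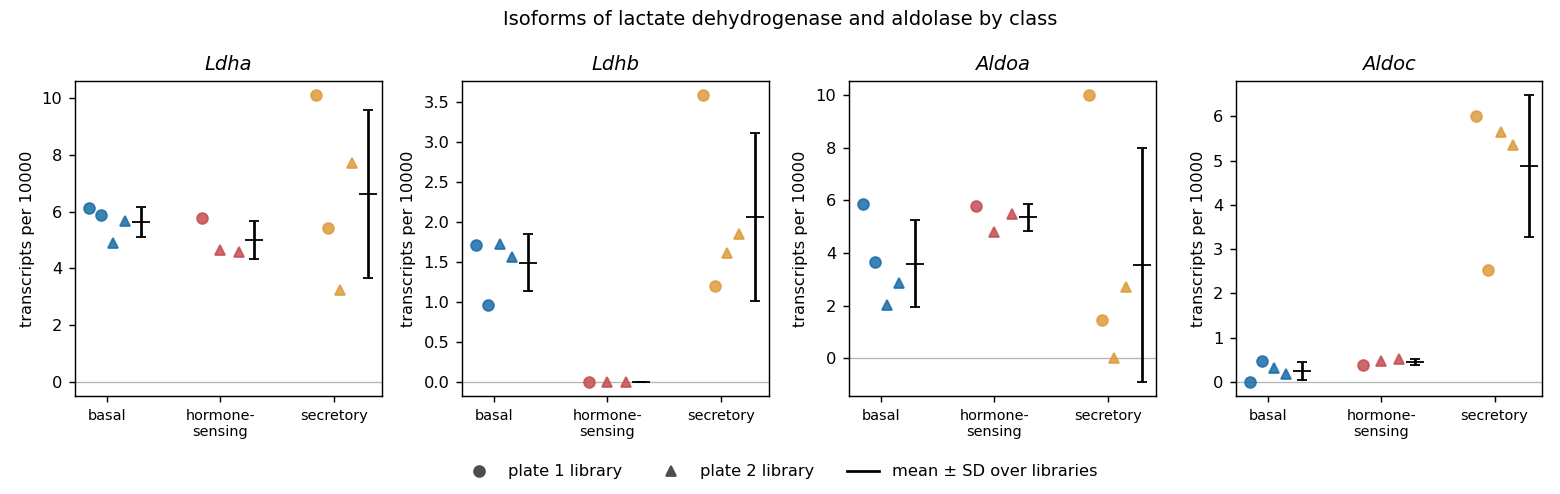
Transcripts per 10000 of Ldha, Ldhb, Aldoa and Aldoc in each library sum by class, with circles for plate 1, triangles for plate 2 and black bars for mean ± SD. Ldhb lies at 0 in the 3 hormone-sensing libraries and Aldoc reaches 2.52 to 5.999 in secretory libraries alone, against at most 0.510 elsewhere.

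Ldhb lies on chromosome 6 from 142490249 to 142507957 and Aldoc on chromosome 11 from 78323073 to 78327781. The promoters of both isoform pairs are shown because the members of each pair differ in class pattern. Each is the 250 bases before a RefSeq transcript start on build GRCm38.p6, 5′ to 3′ on the gene's strand, and capitals mark ACGTG on either strand, the core to which hypoxia-inducible factors are known to bind in several glycolytic genes. Where a gene has several starts, the window with the most matches, or the first of equals, was taken. Aldoa lies on the minus strand at chr7:126799255-126799504, Aldoc on the plus strand at chr11:78322823-78323072, Ldha on the plus strand at chr7:46845554-46845803 and Ldhb on the minus strand at chr6:142507958-142508207.
Aldoa: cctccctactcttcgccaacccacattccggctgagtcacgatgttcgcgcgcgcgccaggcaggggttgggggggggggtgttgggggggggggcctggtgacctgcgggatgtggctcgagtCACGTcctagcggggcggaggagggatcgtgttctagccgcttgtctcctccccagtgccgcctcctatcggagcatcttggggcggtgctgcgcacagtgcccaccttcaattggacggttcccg
Aldoc: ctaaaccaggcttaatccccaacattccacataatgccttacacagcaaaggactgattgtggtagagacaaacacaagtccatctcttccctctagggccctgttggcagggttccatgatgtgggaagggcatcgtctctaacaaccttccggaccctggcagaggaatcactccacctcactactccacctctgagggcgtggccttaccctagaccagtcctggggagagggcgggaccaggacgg
Ldha: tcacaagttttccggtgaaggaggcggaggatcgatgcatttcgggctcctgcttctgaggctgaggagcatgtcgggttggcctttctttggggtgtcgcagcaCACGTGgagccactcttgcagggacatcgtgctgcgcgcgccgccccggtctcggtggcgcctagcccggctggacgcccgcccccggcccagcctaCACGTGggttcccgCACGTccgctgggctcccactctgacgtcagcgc
Ldhb: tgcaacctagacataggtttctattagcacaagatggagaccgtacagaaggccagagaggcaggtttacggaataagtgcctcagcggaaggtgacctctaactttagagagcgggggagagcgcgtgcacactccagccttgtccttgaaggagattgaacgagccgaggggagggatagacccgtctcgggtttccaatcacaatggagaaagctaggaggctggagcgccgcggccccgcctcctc
The Ldha window held 5 matches counted over both strands, where each CACGTG counts once per strand and its matches overlap. The Aldoa window held 1, and those of Aldoc and Ldhb held 0. Among the other genes, the Pgk1 window held 2, 1 of the Pkm windows held 1, and those of Tpi1 and Gapdh held 0. Of 32851 windows of this length, 16.6% held ACGTG on either strand. That share is per single window, whereas the Aldoa window was picked from 3 and the Ldha and Aldoc windows from 2 each. ACGTG contains the pair CG, which stood 25 times in the Ldha, 21 in the Aldoa, 14 in the Ldhb and 5 in the Aldoc window. The part of CG content in the matches was not tested. GCGTG, the other form of the core, stood in 28.2% of windows, once each in the Aldoc and Ldhb windows and in neither of the other 2. A match is a description of letters and not of binding.

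Other enzymes of glucose use were read from lists of the pathway's neighbours. Among 10 genes of glucose uptake and upper glycolysis, 3 could be tested in basal against luminal cells, and Aldoc alone passed. Gpi1, glucose phosphate isomerase, had -0.40 ± 0.37 and Hk1, a hexokinase, -1.35 ± 0.45 (adjusted p = 0.0620, edgeR). Of 6 genes after Pgk1, 2 could be tested, and Pgam1, phosphoglycerate mutase, had -0.02 ± 0.35. Among 10 genes of lactate and pyruvate transport and pyruvate dehydrogenase, 0 of 4 tested passed, with Pdha1 at -0.12 ± 0.28 and Pdhb at 0.06 ± 0.33, both subunits of that enzyme. Of 15 citric acid cycle genes, 0 of 15 passed, with Ogdh at -0.34 ± 0.27 and Mdh1 at -0.19 ± 0.25. Of 14 hypoxia-response genes, 0 of 7 tested passed, with Mif at 0.13 ± 0.31 and Hif1a at 0.56 ± 0.31.

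The pentose phosphate pathway, which leaves glycolysis before aldolase and makes NADPH, held 2 genes that passed tests between classes. G6pdx, its entry enzyme, had 0.143, 0.0966, 0.307 and 0.455 per 10000 in basal, 1.86, 4.11 and 4.08 in hormone-sensing, and 0.421, 0.398, 0 and 0 in secretory sums. Hormone-sensing libraries did not overlap either class. All hormone-sensing sums lay above all basal sums for 15.5% of the 2876 genes tested, and the share above both classes was not counted. G6pdx was lower in basal than in hormone-sensing sums by a log2 fold change of -3.34 ± 0.54 (adjusted p = 8.20e-05, edgeR). Over summed counts it was 14.3-fold higher in hormone-sensing than in secretory cells (exact 95% counting interval 6.73 to 36.4, adjusted p = 3.83e-05, edgeR), a call lost without plate 2 library 1 (adjusted p = 0.119) or plate 2 library 3 (adjusted p = 0.108). Taldo1, transaldolase, which returns carbon to glycolysis, was lower in basal than in luminal sums (-1.25 ± 0.27, adjusted p = 0.00573, edgeR) and than in hormone-sensing sums (-1.42 ± 0.39, adjusted p = 0.0101, edgeR, and 0.0835 without plate 1 library 3). Without the basal cells led by another type's markers, G6pdx had -3.34 and Taldo1 -1.57 against hormone-sensing cells, and both passed. Tkt, transketolase, had -0.86 ± 0.32 in basal against luminal cells (adjusted p = 0.101, edgeR). In the citric acid cycle, Idh3a was higher in basal than in secretory sums (1.75 ± 0.56, adjusted p = 0.0367, edgeR), a call lost on leaving out any of 6 of the 8 libraries (adjusted p 0.0552 to 0.104).

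A single cell carried much of the secretory spread. In plate 1 library 1, a secretory cell of 45824 transcripts held 498 transcripts of the 6 genes, 109 per 10000, the highest level of all classed cells. It gave 78.1% of the glycolytic and 48.2% of all transcripts of that library's secretory sum, which stood at 67.1 per 10000 beside 23.2, 12.9 and 26.6 in the other libraries. The median secretory cell of the same library had 28.9. In basal cells, 1 cell of plate 1 library 2 with 29724 transcripts held 205 of the 274 glycolytic transcripts of its library, 69.0 per 10000. The other 7 basal cells of that library together stood at 17.1 per 10000. These 2 cells had the highest levels among cells of over 10000 transcripts. Single cells made up much of other sums as well. In plate 1 library 3, 1 of 3 hormone-sensing cells gave 61.1% of the glycolytic and 54.0% of all transcripts of its sum. In plate 2 library 3, 1 of 3 hormone-sensing cells gave 51.8% of the glycolytic and 58.1% of all transcripts. A basal cell of plate 1 library 4 gave 59.7% of the glycolytic transcripts of its sum, and a secretory cell of plate 2 library 1 gave 68.75%. Over all basal cells the level ranged from 7.43 to 79.0 per 10000 with a median of 22.6, over hormone-sensing cells from 26.4 to 58.6 with a median of 37.4, and over secretory cells from 3.68 to 109 with a median of 24.1.

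Within a class, deeper cells had a larger share of glycolytic transcripts among basal cells. The Spearman correlation of a cell's depth with its level was 0.449 over 66 basal cells, 0.426 over the 31 of plate 2 library 2 and 0.643 over the 18 of plate 2 library 4. It was 0.169 over 14 hormone-sensing and 0.209 over 28 secretory cells. These are descriptions, since depth is part of both measures and cells share libraries.

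**Figure D4:**
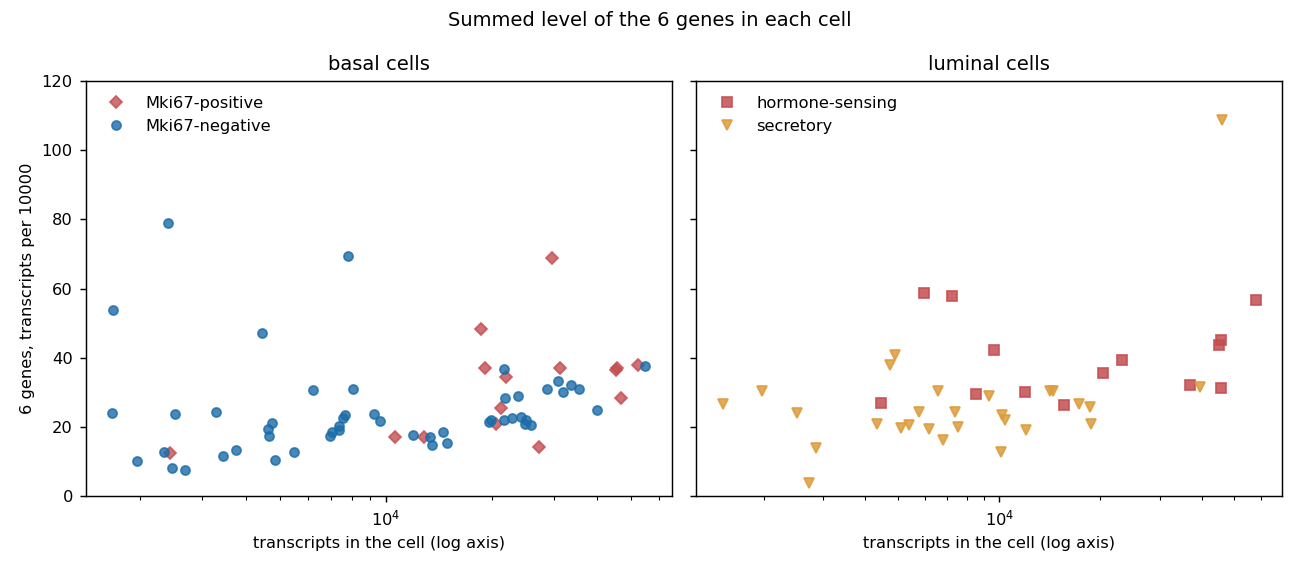
Summed level of the 6 genes in transcripts per 10000 against the cell's transcripts on a log axis, basal cells on the left split by Mki67 and luminal cells on the right by class. The highest point, 109 per 10000, is a secretory cell of plate 1 library 1, and Mki67-positive basal cells lie mostly among the deeper cells.

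Plate 1 against plate 2 was compared within class on 2 sums a side, which gives wide errors. Basal sums of plate 1 had Aldoa at 5.85 and 3.67 and those of plate 2 at 2.01 and 2.84 per 10000. Tpi1 had 2.43 and 1.74 on plate 1, against 0.801 and 1.17 on plate 2, and Pkm had 7.28 and 6.57 on plate 1, against 4.48 and 4.75 on plate 2. For these 3 genes and for Gapdh and Ldha both plate 1 sums lay above both plate 2 sums, as they did for 19.8% of the 4663 genes tested, whereas Pgk1 overlapped, with 3.57 and 1.64 on plate 1 and 2.30 and 1.79 on plate 2. Fitted log2 fold changes were 0.96 ± 0.40 for Aldoa, 1.07 ± 0.42 for Tpi1, 0.58 ± 0.32 for Pkm, 0.30 ± 0.45 for Pgk1, 0.18 ± 0.32 for Ldha and 0.14 ± 0.29 for Gapdh. The lowest adjusted p was 0.57, for Tpi1 in edgeR, and 0 of 6 passed. The background was 0% of 4663 genes, with 391 genes at an unadjusted p under 0.05 and 21 calls by DESeq2. Without plate 1 library 4, Aldoa had 1.15 and crossed the threshold, as it did under no other alternative. The single remaining plate 1 sum was there taken to vary like the others, so this call is not read as a result. Leaving out any 1 of the basal libraries also called genes outside the 6, where the full fit called 0. That remaining sum is plate 1 library 2, with 5 of 8 cells led by another type's markers. Without such cells, which leaves plate 1 library 4 alone on its plate, Aldoa had 0.59 and Pgk1 -0.40. Without the 2 cells of high level described above Aldoa had 0.39, Tpi1 0.47, Gapdh -0.38 and Ldha -0.28.

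In luminal cells all 6 genes were also higher on plate 1 by the fit. Pgk1 had 10.2 and 2.35 per 10000 on plate 1, against 1.83 and 1.40 on plate 2, a log2 fold change of 2.00 ± 0.70 (adjusted p = 0.999, edgeR). Tpi1 had 5.84 and 2.46 on plate 1 and 2.15 and 1.40 on plate 2, a log2 fold change of 1.27 ± 0.55. The remaining values were 0.85 ± 0.52 for Aldoa, 0.56 ± 0.45 for Ldha, 0.55 ± 0.32 for Gapdh and 0.51 ± 0.38 for Pkm. None of the 6 passed, on a background of 0% of 3778 genes, with 120 genes at an unadjusted p under 0.05 and 1 call by DESeq2. Without plate 1 library 3, which leaves the library of the high secretory cell alone on its plate, Pgk1 had 2.73 and crossed the threshold. With 1 sum on that plate, this call is not read as a result. Pgk1 also passed with no filter on low counts (adjusted p = 0.0408, edgeR). Without the library of that cell Pgk1 had 0.57, and under the other alternatives its adjusted p was 0.114 or more. The plate differences of basal and luminal cells were compared by an interaction term, where 0 of 6 genes and 0% of 5023 genes passed in edgeR, with 222 at an unadjusted p under 0.05 and 4 calls by DESeq2.

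**Figure D5:**
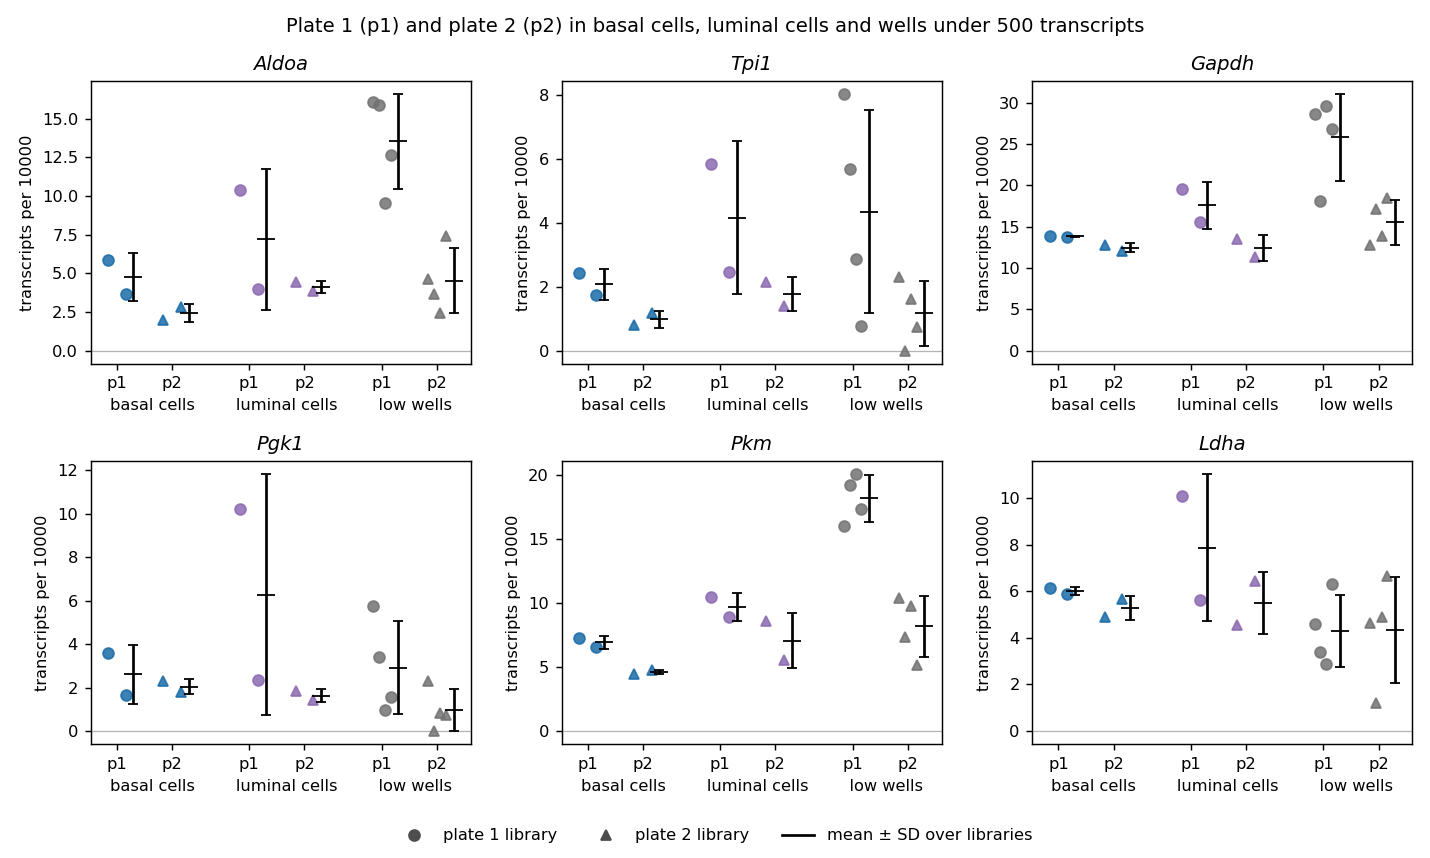
Transcripts per 10000 of the 6 genes by plate in basal sums, luminal sums and wells under 500 transcripts, plate 1 (p1) left of plate 2 (p2), with black bars for mean ± SD over libraries. Aldoa and Pkm in low wells lie at 9.57 to 16.0 and 16.0 to 20.1 on plate 1, against 2.44 to 7.41 and 5.19 to 10.4 on plate 2, while Ldha in low wells overlaps.

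The same plate order stood in wells that held too few transcripts to be cells. Wells under 500 transcripts, 579 in all, had 51.5 glycolytic transcripts per 10000, with 65.5 to 79.1 in the 4 plate 1 libraries and 29.4 to 39.3 in the 4 plate 2 libraries. Per low well this came to 0.734 to 1.06 transcripts on plate 1 and 0.393 to 0.791 on plate 2. Aldoa averaged 13.5 ± 3.07 per 10000 in low wells of plate 1 and 4.54 ± 2.12 in those of plate 2 (SD, n = 4 each), and Pkm 18.2 ± 1.83 on plate 1 and 8.18 ± 2.4 on plate 2. For both genes the plates did not overlap, with p = 0.0286 in an exact two-sided permutation test, the smallest that 4 against 4 libraries can give, and 0.0857 after Benjamini-Hochberg adjustment over the 6 genes. How many of all genes lay apart by plate in low wells was not counted, so whether Aldoa and Pkm stand out there is not known. Ldha averaged 4.29 ± 1.53 on plate 1 and 4.35 ± 2.28 on plate 2 (exact permutation p = 0.971). The glycolytic transcripts of a low well came to 0.760 to 2.16% of what a classed cell of the same library held on average. That average is over all classes and is raised by deep cells, and shallow cells held far less. The secretory cells of plate 2 library 1 held 11, 4 and 1 glycolytic transcripts, beside 0.451 per low well of that library. The part of low-well RNA in the levels of shallow cells and in the plate differences between cells was not tested.

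With Mki67, a marker of cycling cells, basal cells were split into 15 with a transcript and 51 without. Positive cells were deeper, with a median of 22009 transcripts against 8062 in negative cells, and 14 of the 15 came from plate 2. The remaining positive cell, with 6 Mki67 transcripts, was the cell of high glycolytic level in plate 1 library 2. The secretory cell of high level held 3 Mki67 transcripts and was the only 1 of 28 secretory cells with any. A link of Mki67 to the levels of these cells was not tested. Libraries with at least 3 cells of both kinds were plate 2 library 2, with 9 positive and 22 negative cells, and plate 2 library 4, with 5 positive and 13 negative cells. Summed over the 6 genes, positive cells held 29.8 and negative cells 25.8 per 10000 in the first, and positive cells 34.8 and negative cells 23.5 in the second. Gapdh had 14.4 in positive and 11.9 in negative cells of the first library, and 15.5 in positive and 9.55 in negative cells of the second. Pkm had 5.18 in positive and 4.05 in negative cells of the first, and 6.14 in positive and 3.71 in negative cells of the second. Ldha had 5.44 in positive and 4.57 in negative cells of the first, and 7.01 in positive and 4.65 in negative cells of the second. All 3 genes were higher in positive cells of both libraries. So was Tpi1, at 0.973 against 0.693 in the first library and 1.54 against 0.891 in the second. Pgk1 was higher too, at 2.34 against 2.27 in the first and 2.14 against 1.53 in the second. How many of all genes tested had this order in both libraries was not counted. Aldoa was lower in positive cells of both, with 1.5 in positive and 2.33 in negative cells of the first, and 2.47 in positive and 3.12 in negative cells of the second.

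None of these differences passed. With the library as block, Gapdh had a log2 fold change of 0.43 ± 0.24 (adjusted p = 0.558, edgeR), Pkm 0.48 ± 0.29, Ldha 0.37 ± 0.28, Tpi1 0.58 ± 0.41, Pgk1 0.19 ± 0.33 and Aldoa -0.53 ± 0.33 (adjusted p = 0.606, edgeR). The count was 0 of 6 in edgeR and in DESeq2, against 1.21% of 4474 genes in edgeR, and the fit had 1 residual degree of freedom. Of 31 cell cycle genes, 20 could be tested and 6 rose, among them Cenpa, a centromeric histone (3.76 ± 0.53, adjusted p = 0.000206, edgeR), H2afz, a histone variant (1.49 ± 0.27), Ccnb2, a mitotic cyclin (4.13 ± 0.80), and Stmn1, which regulates microtubules (1.68 ± 0.33). Hmgb1 and Tuba1b, other members of that list with many transcripts, had 0.89 ± 0.27 and 0.75 ± 0.29. With basal cells of at least 10000 transcripts alone, where median depths were 24673 in positive and 23843 in negative cells, the summed level was 34.7 in 14 positive and 26.7 per 10000 in 23 negative cells. These levels pool the cells of both plates, and the positive cells include the plate 1 cell with 205 glycolytic transcripts. The fit of such deep cells used plate 2 libraries 2 and 4 alone. There Gapdh had 0.43 and Aldoa -0.58, and 0 genes of the table passed, the cell cycle genes included. DESeq2 called 5 genes of the table in all basal cells. With the split made on Mki67, Top2a or Cenpf, Aldoa had 0.37 and Tpi1 -0.44, so that neither sign held. Pgk1 changed sign there as well. Cenpf itself did not pass in the split by Mki67 (0.17 ± 0.39, adjusted p = 0.933, edgeR), so the wider split may group other cells.

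Between classes, 2 of 10 tested cell cycle genes passed in basal against secretory sums, beside 17% of all genes tested. In basal against hormone-sensing sums 1 of 10 passed, beside 21.4% of all genes, so neither count stands out from its background. In basal sums Hmgb2 was higher than in secretory sums (2.38 ± 0.59, adjusted p = 0.00638, edgeR), Tubb5 likewise (1.53 ± 0.52, adjusted p = 0.0463, edgeR), and Stmn1 was higher than in hormone-sensing sums (1.45 ± 0.50, adjusted p = 0.0423, edgeR). The calls of Tubb5 and Stmn1 were lost on leaving out any of 6 libraries for Tubb5 (adjusted p 0.064 to 0.151) and any of 5 for Stmn1 (adjusted p 0.0511 to 0.154). That of Hmgb2 was lost without the 2 cells of high level (adjusted p = 0.0668). In both plate comparisons 0 genes of these lists passed in edgeR.

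Over the 11 sums, on the scale log2(CPM + 10), the Pearson correlation of each gene with the summed level was 0.970 for Gapdh, 0.926 for Pkm, 0.920 for Aldoa, 0.862 for Pgk1, 0.822 for Tpi1 and 0.716 for Ldha. Each gene is a part of that sum, Gapdh the largest, so high values are built in. Between pairs it was highest for Gapdh and Pkm, at 0.932, and lowest for Pkm and Ldha, at 0.430. Without the highest sum the lowest pair was Pgk1 and Ldha, at 0.259. Among the other genes tested, the 5 most like the summed level were Cpne8 at 0.914, Aldh7a1 at 0.894, Gm12070 at 0.890, Ppp1r15b at 0.883 and Uqcr11 at 0.879. Gm12070 is the near-copy of Gapdh named above, and Uqcr11 is a subunit of respiratory complex III. The sums share libraries, cells of uneven depth and a common total, and the correlations are descriptions.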

How the data were processed

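Wells of 8 libraries were measured by SORT-seq. The deposited values are estimated counts of transcripts per gene and well, which the authors corrected for tag collisions: per the file values, 533073 of 533078 values above 0 lie on the scale of a pool of 256 tags (tolerance 1e-06). Per the submitters' processing notes, BWA 0.6.2-r126 and the build mm10 were used, and how reads of near copies were assigned is not given in the sources used here. No mitochondrial gene lines are in the table, and 8 symbols on several chromosomes kept their full identifiers.

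Counts were rounded, and 81 spike-in lines were left out. Wells needed 1500 transcripts and 500 genes. Doublets were not called, and 8 basal and 9 secretory cells lay within 10 transcripts of the basal to luminal boundary. Counts were summed per library and class, with at least 5 cells for basal and luminal sums and 3 for the finer classes and the Mki67 split. Sums were tested with edgeR 4.0.16 in R 4.3.3 (TMM, filterByExpr, quasi-likelihood, Benjamini-Hochberg over all genes, threshold 0.05), without the genes that set the classes. The library was a block between hormone-sensing and secretory and between Mki67 classes. Standard errors given with edgeR fold changes were derived from the test, as the absolute log2 fold change over the square root of its F statistic. DESeq2 1.42.0 was an alternative. The edgeR step was tested on simulated data. Replicate numbers of the plates mark no shared source in the labels, so plates were compared without a block. Near copies are table genes that blastn 2.17.0 matched to a member's transcript at 90% identity or more over at least 200 bases, and promoters and positions come from RefSeq on GRCm38.p6. Genes named outside the 6 are members of the pathway lists that passed a test, the tested list genes with the most transcripts otherwise, and the 5 most like the summed level. The 6 genes and the lists were chosen with earlier results of these data known. Levels are transcripts per 10000, over libraries of 101158 to 598625 transcripts. Python 3.11.15, pandas 2.3.3 and scipy 1.17.1 made the remaining values.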

Additional observations from a re-analysis of the deposited data

Results flagged for a closer look

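Of 21 sets of 4 library values of the 6 genes, 3 held a value far from the others by Dixon's 95% criterion, which marks about 1 in 20 sets by chance. Aldoa stood at 10.4 per 10000 transcripts in luminal cells of plate 1 library 1, beside 3.85 to 4.42 in the other 3 libraries. Pgk1 stood at 10.2 in the same luminal sum, beside 1.40 to 2.35, and at 10.4 in its secretory cells, beside 0.808 to 1.59. All 3 values hold the secretory cell of 498 glycolytic transcripts. Wells that no comparison of cells used also held glycolytic transcripts, 51.5 per 10000 in the 579 wells under 500 transcripts and 40.0 per 10000 in the 68 wells of at least 500 but under 1500 transcripts.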

How the results depend on the processing

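Of 448 values of the 6 genes under alternatives, 411 kept direction and side of the threshold, 34 changed sign and 3 newly passed, Aldoa and Pgk1 between plates as given above and Pgk1 in luminal cells with no filter on low counts (1.92, adjusted p = 0.0408, edgeR). With no filter, 1510 genes passed in basal against luminal, 1401 in basal against hormone-sensing, 1115 in basal against secretory, 170 between plates in basal and 53 in luminal cells, and 23 in the interaction. Between basal plates Gapdh had -0.074 and Ldha -0.037 with no filter. With DESeq2, 21, 1, 4 and 5 genes passed between plates in basal and luminal cells, in the interaction and by Mki67. With cells thinned to 1500 transcripts, which left few genes to test, 18, 18, 31 and 40 passed in the 4 class comparisons, 18 between basal plates and 0 by Mki67; Gapdh had 0.51 in basal against luminal and 0.083 in basal against hormone-sensing, and Pkm -0.11 between luminal plates. Without cells led by another type's markers, 833 passed in basal against luminal and 83 between basal plates, where Pgk1 had -0.40, and 774 passed in basal against luminal with marker sums at least 10 apart. An alternative without the 2 cells of highest level among those over 10000 transcripts was chosen after seeing the data: Pgk1 had -0.19 against hormone-sensing, Aldoa 0.26 and Pgk1 0.24 against secretory, Gapdh -0.38, Pgk1 -0.41 and Ldha -0.28 between basal plates, and Gapdh -0.069 between luminal plates. Counting Gm12070 as Gapdh, also added later, changed no call. Some alternatives left the sums unchanged, so their values were bound to stay the same. These were the minimum of 3 cells in basal against luminal, and leaving out cells led by another type's markers in 2 comparisons. Those were hormone-sensing against secretory and the split by Mki67. Values of the interaction are not among the 448.

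With the replicate block, 27 genes passed between basal plates and 0 between luminal ones, where the crossed pairing gave 34. Deviations of same-numbered libraries correlated at -0.02 in basal and -0.18 in luminal cells, and the labels give no shared source. With no replicate block, Tpi1 had -0.44 and Pgk1 -0.86 in hormone-sensing against secretory, and 2 genes passed by Mki67. By Mki67, Top2a or Cenpf 26 genes passed, with Aldoa at 0.37, Tpi1 at -0.44 and Pgk1 at -0.086, and 0 passed in cells of at least 10000 transcripts.

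Leaving out a library gave 424 to 840 calls in basal against luminal, 117 to 139 in hormone-sensing against secretory, 314 to 572 in basal against secretory, 34 to 862 and 0 to 104 between basal and luminal plates and 0 to 2 in the interaction. Against secretory it moved Tpi1 from -1.40 to -0.16. It moved Pgk1 from -1.08 to 0.29 and Ldha from -0.41 to 0.027 in basal against luminal, Ldha from -0.54 to 0.24 in hormone-sensing against secretory, Gapdh from -0.31 to 0.017 and Pgk1 from -0.13 to 0.27 in basal against hormone-sensing, and, against secretory, Aldoa from -0.59 to 0.86, Gapdh from -0.069 to 0.59, Pgk1 from -1.16 to 0.86 and Pkm from -0.11 to 0.66. Between basal plates Pgk1 ran from -0.39 to 0.65 and Ldha from -0.011 to 0.21, and between luminal plates Aldoa from -0.024 to 1.40. Leaving out a Mki67 pair left no residual degrees of freedom and was not run. The cause of these changes was not tested. With no filter the median of all genes stood at 0.42 in basal against secretory, 0.30 in basal against hormone-sensing, 0.29 in hormone-sensing against secretory and -0.34 between basal plates, beside 0.09, 0.08, 0.10 and -0.03 with the filter.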
